A study of Mus musculus with 4 samples.

Results

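The promoters described here belong to 88 genes of the cell division cycle and DNA replication, out of 26354 gene promoters in a deposited table of histone H3 lysine 9 dimethylation (H3K9me2) in mouse aortic smooth muscle. They were chosen by gene symbol alone: A-, B-, D- and E-type cyclins (Ccn), cyclin-dependent kinases (Cdk) and their inhibitors (Cdkn), E2F factors (E2f), minichromosome maintenance helicase subunits (Mcm), origin recognition complex subunits (Orc), numbered cell division cycle genes (Cdc) and replicative DNA polymerases (Pola, Pold and Pole). Of 89 annotated symbols that fit this rule, 88 were in the table, and Cdc34b was not analysed here. The remaining 26266 promoters served for comparison. A numbered symbol is a name and not a function, and the rule also took in genes that act elsewhere: Cdc37, a kinase-specific partner of the chaperone Hsp90, Cdc40, a splicing factor, Cdc73, a subunit of the Paf1 transcription elongation complex, and Cdk9, Cdk12 and Cdk13, kinases of the RNA polymerase II tail.

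Chromatin came from vascular smooth muscle cells of the aortic media of male C57Bl/6J mice, taken without culture after the adventitia and endothelium had been removed by hand. Experiments v102 and v134 each gave 1 H3K9me2 ChIP library and 1 input library (sheared chromatin without antibody), so there are 4 libraries, no genotype or treatment groups, and the only contrast is ChIP against input. Whether an experiment was 1 animal or a pool is not given in the sources used here, and with 2 libraries an arm the p-values measure the spread between these libraries only. A table of promoter reads holds no RNA, so the labelled cell type could not be checked against its marker genes.

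H3K9me2 is placed mainly by the methyltransferases G9a and GLP and is found over silent genes and broad repressed domains of euchromatin. Cells of the healthy arterial media rarely divide, and re-entry into the cell cycle is a feature of smooth muscle after injury and in plaques. Entry is driven by D- and E-type cyclins with their kinases and opposed by Cdk inhibitors, E2F factors switch on the genes of S phase, and origins are licensed by the origin recognition complex, Cdc6 and the Mcm helicase before the polymerases copy DNA.

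Values are reads within 1 kb of the transcription start. The H3K9me2/input ratio is summed ChIP reads over summed input reads, not scaled for depth, as the deposited table has it. The log2 ratio is scaled to the 4 promoter totals with 1 read added to each count and averaged over both experiments, and a promoter was called above or below input at an adjusted p under 0.05 (edgeR quasi-likelihood test, Benjamini-Hochberg over all 26354 promoters). The promoter totals were 162233 (v102) and 229605 (v134) ChIP reads against 619100 and 1084349 input reads, a median of only 4 and 5 ChIP reads a promoter. Pooled over all promoters the ratio was 0.230, and the median promoter had 0.162. Actb, an expressed housekeeping gene, had 0 and 1 ChIP reads (ratio 0.0119) and was below input, whereas the germline gene Magea2 had 3 and 7 (ratio 0.455) and did not pass the test (adjusted p = 0.170).

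Promoter sequence is shown for 6 genes on which the comparisons turn: the 3 promoters called above input (Mcm7, Orc2 and Mcm3), the germline cyclins Ccnb3 and Ccna1, and Ccne1, which had no ChIP read. Each run is the 250 bases upstream of the GENCODE gene start on the coding (minus) strand, 5′ to 3′, from the RefSeq genome GRCm38.p6, with CpG dinucleotides in capitals. These starts lie 539 bases (Mcm7), 446 bases (Ccna1) and 44 bases (Ccne1) from the RefSeq start, so the 3 runs are not the RefSeq promoters in which motifs were searched. The runs lie at chr5:138172423-138172672 (Mcm7), chr1:58505110-58505359 (Orc2), chr1:20820313-20820562 (Mcm3), chrX:7041620-7041869 (Ccnb3), chr3:55055502-55055751 (Ccna1) and chr7:38107535-38107784 (Ccne1).
Mcm7: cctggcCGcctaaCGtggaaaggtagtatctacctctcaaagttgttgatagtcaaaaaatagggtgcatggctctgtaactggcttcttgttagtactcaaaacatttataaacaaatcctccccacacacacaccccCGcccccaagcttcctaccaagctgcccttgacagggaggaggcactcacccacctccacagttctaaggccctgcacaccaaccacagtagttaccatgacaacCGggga
Orc2: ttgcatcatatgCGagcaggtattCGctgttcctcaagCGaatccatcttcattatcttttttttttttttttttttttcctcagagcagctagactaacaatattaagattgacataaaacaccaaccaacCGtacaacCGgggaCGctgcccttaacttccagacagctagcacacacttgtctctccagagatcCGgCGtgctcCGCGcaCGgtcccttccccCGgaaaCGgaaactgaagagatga
Mcm3: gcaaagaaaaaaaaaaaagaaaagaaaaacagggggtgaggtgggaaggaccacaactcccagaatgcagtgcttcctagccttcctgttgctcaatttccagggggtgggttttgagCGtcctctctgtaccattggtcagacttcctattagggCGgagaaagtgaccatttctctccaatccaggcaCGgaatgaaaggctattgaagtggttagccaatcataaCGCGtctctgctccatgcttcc
Ccnb3: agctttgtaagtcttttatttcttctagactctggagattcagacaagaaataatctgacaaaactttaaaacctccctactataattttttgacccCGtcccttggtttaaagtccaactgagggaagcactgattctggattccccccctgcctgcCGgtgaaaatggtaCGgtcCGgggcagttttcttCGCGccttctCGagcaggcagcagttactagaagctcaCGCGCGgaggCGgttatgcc
Ccna1: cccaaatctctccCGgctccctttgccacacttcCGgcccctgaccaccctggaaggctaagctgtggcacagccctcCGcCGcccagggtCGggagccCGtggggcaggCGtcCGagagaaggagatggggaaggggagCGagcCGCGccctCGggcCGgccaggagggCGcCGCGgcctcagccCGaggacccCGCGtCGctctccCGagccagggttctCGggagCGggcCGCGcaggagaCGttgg
Ccne1: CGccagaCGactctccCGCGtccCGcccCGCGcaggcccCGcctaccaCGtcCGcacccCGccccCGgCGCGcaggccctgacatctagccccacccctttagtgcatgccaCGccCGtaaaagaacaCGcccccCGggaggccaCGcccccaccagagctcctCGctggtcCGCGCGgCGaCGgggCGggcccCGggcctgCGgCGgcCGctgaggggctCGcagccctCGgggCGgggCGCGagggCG
The runs held 4 CpGs in Mcm7, 13 in Orc2, 5 in Mcm3 and 11 in Ccnb3, against 26 in Ccna1 and 36 in Ccne1. GC content of the same 250 bases was 50.8%, 46%, 48% and 48% in the first 4 runs against 73.6% in Ccna1 and 78.8% in Ccne1. The same stretch of Pold2, another promoter without a ChIP read, held 18 CpGs at 65.2% GC. CpG content relative to base content, the observed-to-expected ratio, did not split the 6 genes in this way over 1 kb either side of the start. It was 0.590 at Mcm7, 0.706 at Orc2, 0.555 at Mcm3 and 0.474 at Ccnb3, against 0.640 at Ccna1 and 0.747 at Ccne1. Over all 88 promoters the log2 ratio had a Pearson r of -0.046 with this CpG ratio and -0.248 with GC content. Ccne1 had the most GC in that window of the 4 members without a ChIP read (67.5%, against 57.7% at E2f3, 52.7% at Cdc37 and 50.4% at Pold2). The contrast between the printed runs thus rests on the genes chosen.

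H3K9me2 was low at most of these promoters. The median log2 ratio of the 88 was -1.01 (quartiles -1.62 and -0.33), against -0.31 for all other promoters and -0.46 for the other 17854 promoters of protein-coding genes. The median member stood at percentile 29.4 of the table. Both experiments gave this order: the median was -0.80 in v102 and -1.06 in v134, where all other promoters had -0.07 and -0.38. Reads pooled over the members gave a ratio of 0.140 in v102 and 0.120 in v134, which was 0.535 and 0.565 times that of all other promoters. Of the 88 promoters, 55 (62.5%) lay below the all-promoter median in both experiments, compared with 37.9% of all other promoters. In the top quartile of the ratio stood 7 members (7.95%) and in the top decile 0, against 25.1% and 10.1% of all other promoters. The plot of promoter lists side by side shows the shift. These shares describe a list chosen with earlier results known and were not tested as a list.

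**Figure D1:**
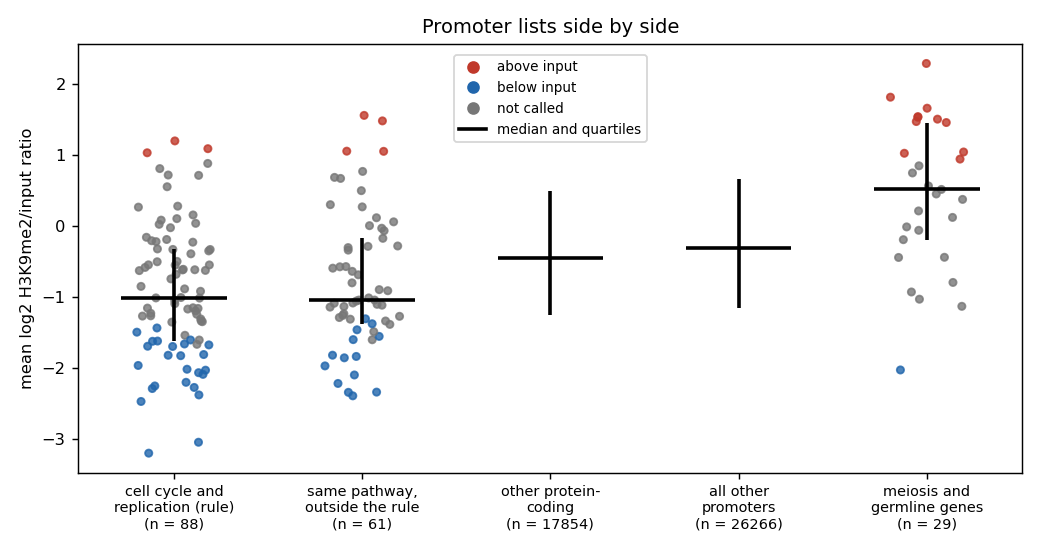
Mean log2 H3K9me2/input ratio (y axis) of promoters in 5 lists (x axis), with points for single promoters coloured by call in the 3 short lists and crosses for the median and quartiles of every list. The 88 cell cycle and replication promoters (median -1.01) and the 61 other genes of the same pathway (-1.04) lie lower than the 29 meiosis and germline genes (0.51).

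Few members were called above input and many below. Above input were 3 of the 88 members (3.41%), where 18.6% of all promoters were called, and below input were 25 (28.4%), where 17% of all promoters were called. The 60 members in neither class had 27 to 93 input reads and 1 to 22 ChIP reads. Fitting the experiment as a block, so that each ChIP was set against its own input, left the 3 calls above (15.8% of all promoters) and 16 calls below, all among the 25 (8.3% of all promoters). Leaving out 1 library at a time changed these counts more: those above became 5 without the v102 ChIP, 0 without the v134 ChIP (2 at an unadjusted p under 0.05) and 1 without either input, and those below became 21, 14, 4 and 4 in that order. Over all promoters the same fits called 19.1%, 12.9%, 11.5% and 11.7% above and 15.2%, 8.83%, 1.88% and 1.95% below. DESeq2 called none of the 88 and left 79 of their adjusted p-values undefined. Over all promoters it called 11.6% above and 0.102% below and left 17883 undefined. The members had 3 above and 19 below at an unadjusted p under 0.05. None of the 3 promoters above was called in each of the 4 reduced fits, and of the 25 below, Pold2 and Cdc37 were.

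The 3 promoters above input were Mcm7, Orc2 and Mcm3, which are among the 16 of origin licensing and firing (18.8%, near the 18.6% of all promoters). The roles hold 2 to 16 promoters each, so their counts are descriptions to be read beside 18.6% above and 17% below over the table. Mcm7, a subunit of the replicative Mcm helicase, had 12 (v102) and 16 (v134) ChIP reads against 19 and 37 input reads. The ratio was 0.5 with an exact 95% interval of 0.306 to 0.801, which covers counting error only, and the promoter was above input by 1.26 on the log2 scale (SE 0.43, adjusted p = 0.0134, or 0.0327 with the block). Both experiments placed it high, at log2 ratios of 1.31 and 1.08. Orc2, a core subunit of the complex that marks origins, had 10 and 34 ChIP reads against 27 and 54 input reads, a ratio of 0.543 (interval 0.367 to 0.794) and a log2 fold change of 1.36 (SE 0.37, adjusted p = 0.00169, or 0.00863 with the block). Its log2 ratio was 0.58 in v102 and 1.59 in v134, so the excess was larger in v134. Mcm3, another helicase subunit, had 11 and 28 ChIP reads against 25 and 57 input reads, a ratio of 0.476 (interval 0.316 to 0.705) and a log2 fold change of 1.19 (SE 0.38, adjusted p = 0.00822, or 0.0163 with the block). These 3 stood at percentiles 82.1 to 84.8, in the top quartile of the table but below its top decile, which began at a ratio of 0.648. In v102 alone Orc2 (percentile 69.2) and Mcm3 (74.6) missed the top quartile, and Mcm7 (84.5) did not. Without the v134 ChIP the log2 fold change of Mcm7 was 1.31 (adjusted p = 0.0635), while that of Orc2 was 0.52 (adjusted p = 0.530) and that of Mcm3 was 0.65 (adjusted p = 0.407).

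Other licensing genes had low values. Mcm4, Mcm6 and Orc3 were below input, also 18.8% of the 16 (6 below at an unadjusted p under 0.05). Mcm4 had 1 and 2 ChIP reads against 26 and 39 input reads, a ratio of 0.0462 (interval 0.00928 to 0.141). Mcm6 had 1 and 2 against 24 and 43, a ratio of 0.0448 (interval 0.00901 to 0.137). The 2 subunits lie in the same helicase ring as Mcm3 and Mcm7. These 4 were singled out by their calls, so the gap between their counting intervals is no test of a difference. Mcm4 shares part of its window with Prkdc, which had 4 and 3 ChIP reads against 27 and 34 input reads (ratio 0.115) and was not called. Orc3 had 1 and 1 ChIP reads against 22 and 38 input reads (ratio 0.0333, interval 0.00395 to 0.126). Mcm4 and Mcm6 did not pass with the block and Orc3 did (adjusted p = 0.0465). Without either 1 of the inputs, none of the 3 was called. Mcm2 had 0 ChIP reads in v102 and 7 in v134, Mcm5 had 2 and 2, and Mcm10, which helps start the helicase, had 7 and 4; none was called. Cdc6, the loader of the helicase, had 3 and 13 ChIP reads against 21 and 40 input reads, Orc5 had 5 and 11 against 19 and 44, and their log2 ratios (0.08 and 0.26) were the highest of this group after the 3 called. The remaining 5 of the group were not called. Among them Orc1 had 2 and 5 ChIP reads against 32 and 54 input reads (ratio 0.0814, adjusted p = 0.0522). Orc4 had 1 and 2 against 16 and 38, and Orc6 had 1 and 5 against 18 and 36. Cdc45, which travels with the helicase, had 5 and 3 against 26 and 44, and Cdc7, the kinase that fires origins, had 1 and 6 against 19 and 26.

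Mcm8 and Mcm9, which form a separate helicase for DNA repair and meiosis, had 4 and 2, and 2 and 13 ChIP reads against 23 and 45, and 14 and 62 input reads, and were not called either. The ratio of Mcm9 was 2.28 times that of Mcm2, which did not pass Fisher's exact test on the summed reads (two-sided p = 0.111, adjusted over the 8 pairs of related promoters compared 0.216).

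**Figure D2:**
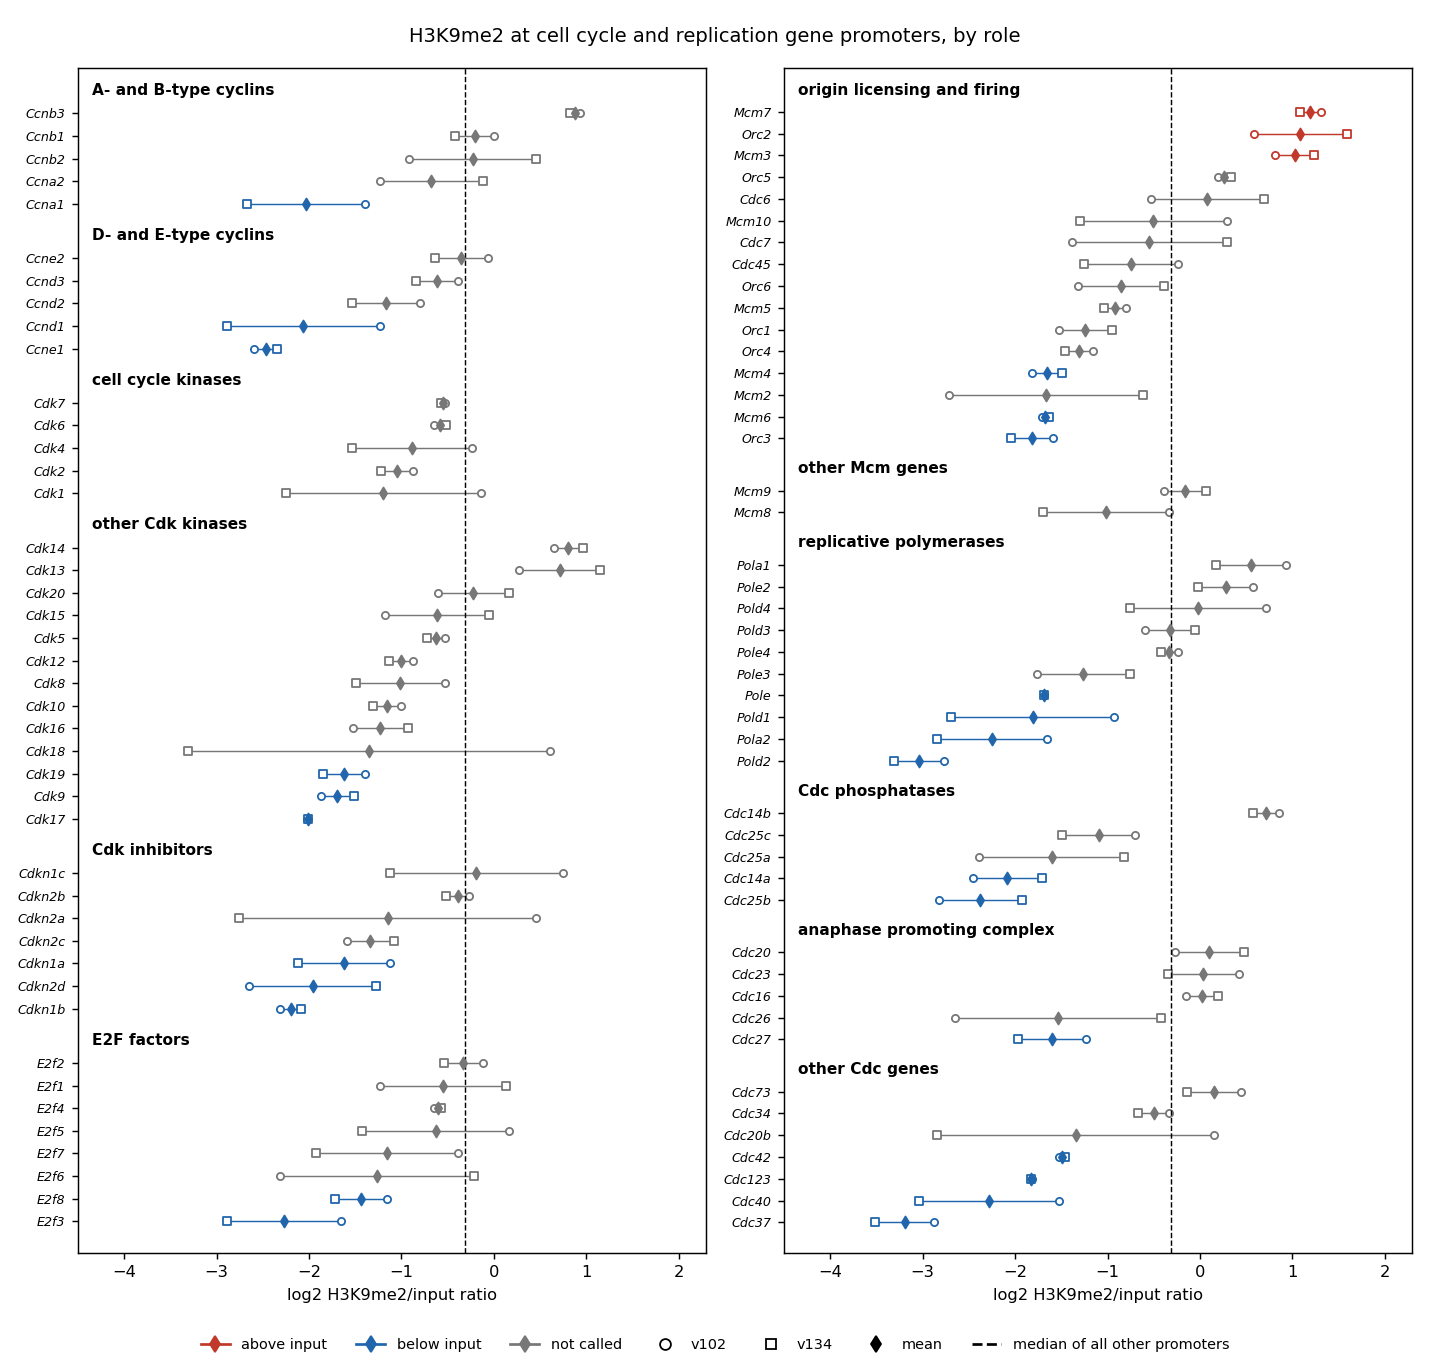
Log2 H3K9me2/input ratio (x axis) of each of the 88 promoters (y axis), ordered by role and then by mean, with a circle for v102, a square for v134, a filled diamond for the mean and colour for the call. Mcm7, Orc2 and Mcm3 are the promoters called above input, and most diamonds lie left of the dashed line at the median of all other promoters (-0.31).

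Reads at several of these starts are shared with a neighbouring gene, because windows of 1 kb on either side of close starts overlap. Orc2 starts 39 bases from Gm15834, a non-coding gene on the opposite strand, which had the same ChIP reads (10 and 34) and was also above input. Mcm7 starts 420 bases from Ap4m1, a subunit of an adaptor complex for vesicle transport, where 8 and 12 ChIP reads stood against 22 and 38 input reads (ratio 0.333) and the test was not passed. Orc3 and Rars2, 13 bases apart, had identical counts. In all, 21 members shared part of their window with another promoter of the table (median log2 ratio -1.35). Of these, 2 were above (9.52%) and 9 below input (42.9%). The 67 members with a window of their own had 1 above (1.49%) and 16 below (23.9%). Over all promoters 18.6% were called above and 17% below. Values for other promoters with shared windows are not given here, and the difference was not tested. The median of the 67 was -0.68 on the totals of all promoters, and -0.74 with only unshared windows kept. Mcm3 is the called promoter above input with an unshared window.

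The high ratio did not extend to the next promoters along the chromosome in every case. Taf6 and Cnpy4, 15.0 and 15.1 kb from the Mcm7 start, were below input with 1 and 4 ChIP reads each against 26 and 57 input reads, and the microRNA genes Mir106b and Mir93 inside the Mcm7 gene had no ChIP read. Around Orc2 the nearest unshared promoters, Ppil3 and Nif3l1 at 59.6 and 59.96 kb, had ratios of 0.119 and 0.153 and were not called. Mcm3 lay between promoters of unlike level: Il17f, an inflammatory cytokine gene 29.7 kb away, had 6 and 15 ChIP reads against 14 and 45 input reads (ratio 0.356), and Il17a at 89.4 kb had a ratio of 0.368, while Paqr8 on the other side had 0.0811. None of these 3 neighbours of Mcm3 passed the test.

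Among the A- and B-type cyclins, which drive S phase and mitosis, the germline forms had unlike values, a difference that was not tested. Ccna1, the A-type cyclin used in male meiosis, had 1 ChIP read in v102 and 0 in v134 against 19 and 29 input reads. Its ratio of 0.0208 (interval 0.000517 to 0.122) put it below input (adjusted p = 0.0137, or 0.0497 with the block), the only called cyclin of these types. Ccna2, the A-type cyclin of somatic cells, had 2 and 6 ChIP reads against 26 and 35 input reads (ratio 0.131) and was not called. The ratio of Ccna1 was 0.159 times that of Ccna2 (0.684 times in v102, and no ChIP read at Ccna1 in v134), a difference that did not pass Fisher's exact test on the summed reads (two-sided p = 0.0784, adjusted 0.216). Ccnb3, the cyclin of oocyte meiosis, lies on the X chromosome and had 5 and 14 ChIP reads against 11 and 39 input reads. Its ratio of 0.380 (interval 0.212 to 0.656) was in the top quartile of all promoters, with log2 ratios of 0.93 and 0.82, and it did not pass the test (adjusted p = 0.137).

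The mitotic cyclins stood near the middle of the table. Ccnb1, the partner of Cdk1 in mitosis, had 4 and 5 ChIP reads against 18 and 37 input reads (ratio 0.164), and Ccnb2 had 4 and 15 against 35 and 54 (ratio 0.213). Ccnb3 was 2.32 times Ccnb1 in ratio and 1.78 times Ccnb2 (3.98 times in v102 and 1.29 in v134), and neither difference passed the exact test (adjusted p = 0.216 for both). The nearest called promoter to Ccnb3 was Akap4, a sperm-tail gene 25.9 kb away, with 9 and 12 ChIP reads against 11 and 18 input reads (ratio 0.724). X-linked promoters outside the list had a median of 30 input reads, against 57 for all promoters of the table, and a median log2 ratio of -0.02. The other X-linked members were Pola1, the catalytic subunit that starts new strands (ratio 0.259), and Cdk16, with 1 ChIP read in all, and neither was called.

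D- and E-type cyclins, which start the cycle, held little H3K9me2, with a median log2 ratio of -1.17 over 5 promoters. Below input were 2 of them (40%, where 17% of all promoters were called). Above input were 0 (0 also at an unadjusted p under 0.05), where 18.6% of all promoters were called. Ccnd1 had 1 and 0 ChIP reads against 17 and 34 input reads, a ratio of 0.0196 (interval 0.000487 to 0.114, adjusted p = 0.0108, or 0.0463 with the block). Ccne1, the partner of Cdk2 at entry to S phase, had no ChIP read in either library against 22 and 23 input reads. With the 3 reads over both libraries that a count of 0 allows, its ratio was at least 3.45-fold lower than the pooled ratio of all promoters (adjusted p = 0.00240). Ccnd2 and Ccnd3 had 2 and 2, and 4 and 3 ChIP reads, at ratios of 0.0678 and 0.123, and Ccne2 had 3 and 2 at 0.139. These 3 were not called. The ratio of Ccnd2 was 3.46 times that of Ccnd1 on 4 ChIP reads against 1, which did not pass the exact test (adjusted p = 0.501). All 5 promoters had log2 ratios of -0.07 or lower in both experiments, where the median of all other promoters was -0.07 in v102 and -0.38 in v134. The highest was Ccne2 in v102, at percentile 51.4 of that experiment.

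The main kinases of the cycle were low and uncalled. Cdk1, Cdk2, Cdk4 and Cdk6, which cyclins of the types above activate, and Cdk7, a kinase that acts on the other Cdks, had log2 ratios from -1.20 to -0.55, and none of the 5 passed the edgeR test (1 below and 0 above at an unadjusted p under 0.05). Cdk1 had 4 and 1 ChIP reads against 20 and 44 input reads, so its log2 ratio was -0.14 in v102 and -2.25 in v134. Over all promoters 18.6% were called above and 17% below. The 13 other Cdk promoters included 3 below input (23.1%, near the 17% of all promoters). They were Cdk9, the elongation kinase (1 and 1 ChIP reads, ratio 0.0377, interval 0.00445 to 0.143), Cdk17 (1 and 2, ratio 0.0349, interval 0.00706 to 0.105) and Cdk19, a kinase of the Mediator complex (1 and 1, ratio 0.0385, interval 0.00454 to 0.146). With the block Cdk17 alone kept its call (adjusted p = 0.0131), which is 7.69% of the 13, where 8.3% of all promoters were called. At the other end, Cdk14, a kinase of the cell membrane with a role in Wnt signalling, had 6 and 13 ChIP reads against 16 and 33 input reads (ratio 0.388), and Cdk13 had 5 and 7 against 18 and 16 (ratio 0.353). Both were in the top quartile and neither passed (adjusted p = 0.135 and 0.335).

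Cdk inhibitors, the brakes on these kinases, gave 3 calls below input among 7 promoters (42.9%, where 17% of all promoters were called) and 0 above (0 also at an unadjusted p under 0.05), with a median log2 ratio of -1.34. Cdkn1b, which encodes p27, had 0 and 1 ChIP reads against 18 and 39 input reads (ratio 0.0175, interval 0.000437 to 0.102, adjusted p = 0.00584, or 0.0314 with the block). Cdkn1a, which encodes p21, had 2 and 1 against 24 and 40 (ratio 0.0469, interval 0.00942 to 0.143, adjusted p = 0.0234). Cdkn2d had 0 and 4 against 23 and 56 (ratio 0.0506, adjusted p = 0.0150). With the block the last 2 had adjusted p-values of 0.0629 and 0.0513, which leaves Cdkn1b (14.3% of the 7, where 8.3% of all promoters were called). Cdkn2c had 1 and 2 against 22 and 29 (ratio 0.0588, interval 0.0117 to 0.182) and was not called (adjusted p = 0.0687). In the Cdkn2a and Cdkn2b locus the experiments disagreed at Cdkn2a, the gene of p16 and p19Arf, which had 8 ChIP reads in v102 and 0 in v134 against 24 and 31 input reads. Its neighbour Cdkn2b had 4 and 7 against 22 and 53, and over the summed reads the ratios were 0.145 and 0.147. GENCODE gives Cdkn2a 2 transcript starts, and which of them the counted window covers is not given in the sources used here.

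Cdkn1c, an imprinted inhibitor that encodes p57, had 10 and 2 ChIP reads against 24 and 30 input reads (ratio 0.222), again with the excess in v102. Its ratio was 4.74 times that of Cdkn1a, the smallest p among the 8 pairs (exact two-sided p = 0.0143, adjusted 0.115). None of the 8 pairs passed after adjustment and 1 passed before it. Summed reads treat each read as independent and leave out the spread between experiments, so these p-values cover counting error only. The plot of cyclins and Cdk inhibitors shows how wide the counting intervals were at these depths.

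**Figure D3:**
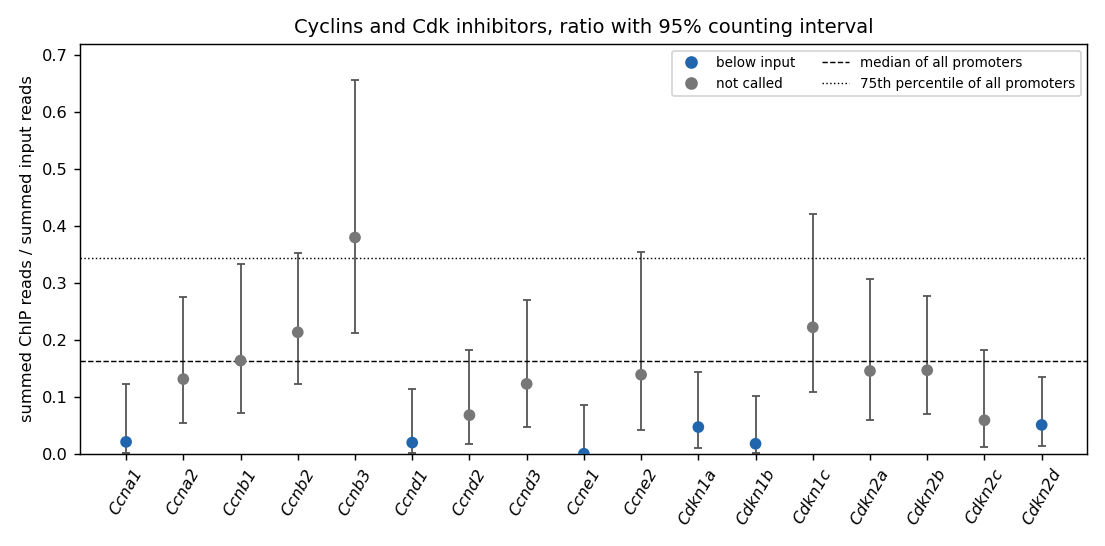
Summed ChIP reads over summed input reads (y axis) at 17 cyclin and Cdk inhibitor promoters (x axis), with exact 95% counting intervals and colour for the call, beside the median (0.162, dashed) and the 75th percentile (0.343, dotted) of all promoters. Ccnb3 alone has a ratio over the 75th percentile, and Ccna1, Ccnd1, Ccne1, Cdkn1a, Cdkn1b and Cdkn2d are below input.

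E2F factors, which turn on replication genes, had a median log2 ratio of -0.89 over 8 promoters, 2 of them below input (25%, where 17% of all promoters were called) and 0 above (0 also at an unadjusted p under 0.05). With the block 1 stayed. E2f3, an activator, had no ChIP read against 11 and 34 input reads (interval 0 to 0.0854, adjusted p = 0.00276). With 3 reads in place of the 0, its ratio would be 3.45-fold lower than that of all promoters pooled. E2f8, a repressor, had 1 and 3 ChIP reads against 16 and 61 input reads (ratio 0.0519, adjusted p = 0.0204, or 0.0554 with the block). E2f1, another activator, had 1 and 9 against 17 and 42, which gave log2 ratios of -1.24 and 0.14, and E2f2 had 6 and 8 against 28 and 61 (ratio 0.157). Neither was called, and the same held for E2f4 to E2f7, whose log2 ratios lay between -1.27 and -0.61. E2f6, a repressor, had 0 ChIP reads in v102 and 5 in v134.

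Polymerase promoters were mostly low. Below input were 4 of 10 (40%, where 17% of all promoters were called). Above input were 0 (0 also at an unadjusted p under 0.05), where 18.6% of all promoters were called. All 4 passed with the block too, where 8.3% of all promoters were called below. Pold2, an accessory subunit of polymerase delta, had no ChIP read in either library against 25 and 46 input reads. With 3 reads in place of the 0, its ratio would be 5.44-fold lower than that of all promoters pooled (interval of the ratio 0 to 0.0533). Pold2 was below input (adjusted p = 0.000105), and it passed without any 1 of the libraries. Pold1, the catalytic subunit of the same enzyme, had 3 and 1 ChIP reads against 28 and 60 input reads (ratio 0.0455, adjusted p = 0.00672). Pole, the catalytic subunit of polymerase epsilon, had 2 and 3 against 36 and 60 (ratio 0.0521, adjusted p = 0.00674), and Pola2 had 1 and 0 against 23 and 33 (ratio 0.0179, interval 0.000444 to 0.104, adjusted p = 0.00598). The highest in this group were Pola1 and Pole2, with log2 ratios of 0.55 and 0.28, and they were not called. Pold3, Pold4, Pole3 and Pole4, accessory subunits, had 6 to 13 ChIP reads in all, with log2 ratios from -1.26 to -0.03, and were not called.

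Among the Cdc genes the lowest value of all 88 was at Cdc37, with no ChIP read against 27 and 53 input reads. With 3 reads in place of the 0, its ratio would be 6.13-fold lower than that of all promoters pooled (interval of the ratio 0 to 0.0472). Cdc37 was below input (adjusted p = 2.99e-05), and it too passed without any 1 of the libraries. The Cdc25b phosphatase, which activates Cdk1, had 0 and 1 ChIP reads against 26 and 35 input reads (ratio 0.0164, interval 0.000408 to 0.0948, adjusted p = 0.00324). Its relatives Cdc25a, with 0 and 2 against 19 and 24, and Cdc25c, with 4 and 3 against 30 and 52, were not called. The ratio of Cdc25c was 1.84 times that of Cdc25a, which did not pass the exact test (adjusted p = 0.820). Cdc14a had 0 and 1 against 20 and 30 (ratio 0.02, interval 0.000497 to 0.117), while its relative Cdc14b had 8 and 5 against 18 and 18 (ratio 0.361), in the top quartile but not called (adjusted p = 0.289). Of the 5 subunits and activators of the anaphase promoting complex, the ubiquitin ligase that ends mitosis, Cdc27 was below input (3 and 1 ChIP reads against 35 and 36 input reads, adjusted p = 0.0235, or 0.0512 with the block). That call was 20% of the 5, near the 17% of all promoters. Cdc27 shares its window with Myl4, with identical counts. Cdc16, Cdc20 and Cdc23 had log2 ratios of 0.02 to 0.10 and were not called. Cdc26 had 0 and 5 ChIP reads against 23 and 37 input reads (log2 ratio -1.54) and was not called. Of the 7 other Cdc genes, 4 were below input (57.1%, where 17% of all promoters were called): Cdc37, Cdc40, Cdc42 and Cdc123. With the block Cdc42 was no longer called (adjusted p = 0.0852). That left 42.9% of the 7, where 8.3% of all promoters were called.

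At these depths single libraries decided many values. The log2 ratios of the 2 experiments differed by more than 1 at 31 of the 88 promoters and by more than 2 at 7. Cdk18, with 7 ChIP reads in v102 and 0 in v134, Cdkn2a with 8 and 0, and Cdc20b with 6 and 0 moved furthest. Across the 88 promoters, which share the same 4 libraries, the log2 ratios of the 2 experiments had a Pearson r of 0.472 (Spearman rho 0.470). In the top quartile of both experiments stood 2 members (2.27%), Mcm7 and the uncalled Ccnb3, against 17.7% of all other promoters. With 0 or 1 ChIP read in all stood 12 members (13.6%), against 6.34% of all other promoters. The median input was 53.5 reads in these 12 and 53 in the others with so few ChIP reads.

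Base composition moved with the ratio. The members were slightly richer in GC over the 2 kb window (median 52.5%, other protein-coding promoters 51.9%) and in CpG, with a median observed-to-expected ratio of 0.634 against 0.505. In windows of 45 to 50% GC, the median log2 ratio was -0.68 for 20 members and -0.08 for other protein-coding promoters. From 50 to 55% it was -0.89 for 33 members and -0.60 for the others, and from 55 to 60% it was -1.27 for 23 members and -0.96 for the others. Above 60% the order turned, with -0.85 for 10 members and -1.27 for the others. It turned likewise in the CpG-richest windows, with an observed-to-expected ratio over 0.75, where 24 members had a median of -0.93 and other protein-coding promoters -1.22, and 29.2% of the members were below input against 38.4%. With the trend on GC removed the median member stood at percentile 38.0 and the median of other protein-coding promoters at 49.8. Single promoters moved more: Ccnb3, whose window had 38.0% GC, fell from percentile 79.4 to 40.9, whereas Mcm7, Orc2 and Mcm3 stood at 95.8, 94.0 and 82.6. Cdk13, at 68.6% GC, rose to 98.3. The adjusted percentiles rank only the 22299 promoters with a GC value, and the others rank all 26354. GC content was taken around the GENCODE start, which may differ from the start around which reads were counted. Within the 88, the log2 ratio had a Pearson r of -0.248 with GC content and -0.046 with the CpG ratio.

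**Figure D4:**
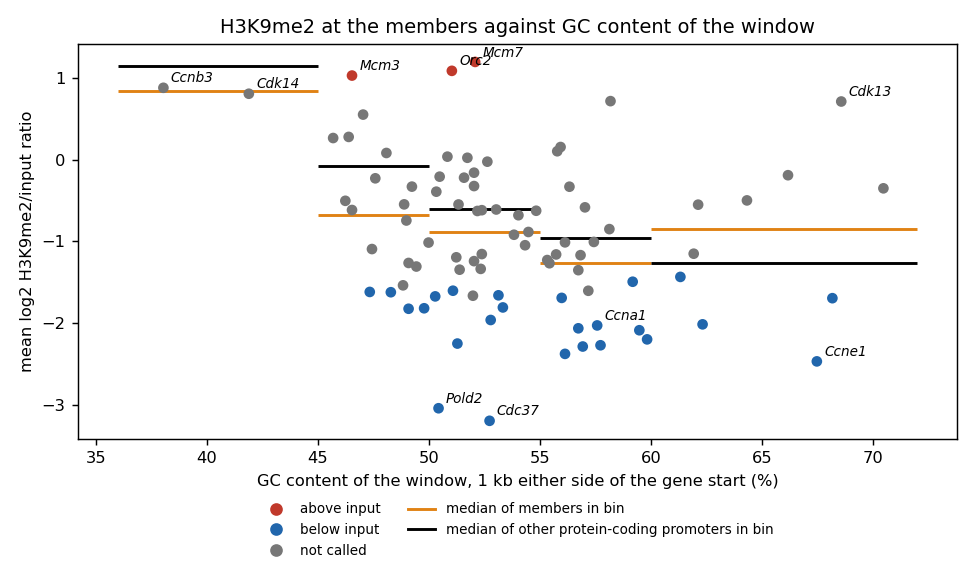
Mean log2 H3K9me2/input ratio (y axis) of the 88 promoters against GC content of the window in percent (x axis), coloured by call, with the median of members (orange) and of other protein-coding promoters (black) in each GC bin. The orange line is lower than the black in every bin up to 60%, and above 60% it is higher (-0.85 against -1.27).

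Promoter letters were searched for motifs of cell cycle control in the RefSeq promoters, 250 bases before to 50 after the start, which matched 74 of the 88 members and 15077 other promoters. The E2F site was taken as TTTCCCGC, TTTCGCGC, TTTGCCGC or TTTGGCGC on either strand. It was present in 20 of 74 members (27.0%) and in 2.85% of the other promoters. The median log2 ratio was -1.03 in members with these letters and -1.01 in members without. Below input were 4 of the 20 with them and 16 of the 54 without. CCAAT, the letters of the NF-Y box, was in 38 members (51.4%) and 38.1% of the other promoters. The median was -1.18 where present and -0.62 where absent, and 12 of the 38 were below input against 8 of 36. TTTGAA, the letters of the CHR element of late cell cycle genes, was in 11 members (14.9%) and 15.2% of the others. Its median was -1.20 where present and -1.01 where absent, and 3 of the 11 were below input against 17 of 63. Over all promoters 17% were below input, and none of these differences was tested. A match describes these letters only. None of the 6 printed runs, which start from GENCODE, holds an E2F match.

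Genes of the same pathway with other symbols gave like values. A list of 61 further genes of replication, mitosis and checkpoint control had a median log2 ratio of -1.04 (percentile 28.5), with 4 above input (6.56%, where 18.6% of all promoters were called) and 14 below (23.0%, where 17% were). With the block 3 were above and 8 below, where 15.8% and 8.3% of all promoters were called. Anapc11 was then no longer called (adjusted p = 0.0568). Those above without the block were Anapc1 and Anapc11 of the anaphase promoting complex, Rrm1, the large subunit of ribonucleotide reductase, and Gins3 of the replicative helicase. Anapc1 had 11 and 32 ChIP reads against 22 and 35 input reads (ratio 0.754, log2 fold change 1.82, SE 0.39, adjusted p = 4.03e-05). Among those below were Mki67, the proliferation antigen (0 and 1 ChIP reads against 20 and 43), Fen1, a nuclease of lagging strands (0 and 1 against 22 and 42), and the retinoblastoma gene Rb1 (2 and 0 against 25 and 37).

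Meiosis and germline genes lay higher. Of 29 such genes outside the rule, 11 were above input (37.9%, where 18.6% of all promoters were called). Below input was 1, Ccnb1ip1 (3.45%, where 17% of all promoters were called). The median log2 ratio was 0.51 (percentile 71.7). With the block 8 were above and 0 below, where 15.8% and 8.3% of all promoters were called. Dazl, Syce3, Tex11 and Ccnb1ip1 were then no longer called (adjusted p = 0.0502 to 0.0694). Stag3, a meiotic cohesin subunit, had 34 and 29 ChIP reads against 20 and 37 input reads, a ratio of 1.11 (log2 fold change 2.43, SE 0.36, adjusted p = 1.08e-09). Its window overlaps that of Gpc2. Sycp1, of the synaptonemal complex that pairs chromosomes, had 21 and 30 against 19 and 49 (ratio 0.750, adjusted p = 5.96e-06), and Ddx4, a germ cell RNA helicase, had 24 and 25 against 28 and 47 (ratio 0.653, adjusted p = 7.79e-05). Against these, the germline cyclin Ccna1 had 1 ChIP read in all and the oocyte cyclin Ccnb3 had 19. Median GC content was 51.0% in the meiosis genes and 52.5% in the members, and the median observed-to-expected CpG ratio was 0.513 and 0.634. The difference in H3K9me2/input ratio between the lists was not tested.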

How the data were processed

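The authors trimmed reads (Trim Galore 0.4.2 and cutadapt 1.9.1 in the submitters' processing notes), aligned them to GRCm38 with Bowtie2 2.2.7 and quantified promoters in SeqMonk. They deposited raw read counts within 1 kb of each transcription start for 4 libraries, with the summed counts of each arm and their ratio (ChIP over input). How duplicate reads were handled and which annotation release was used are not given in the sources used here. Every promoter had at least 21 summed input reads, and 0 columns of per-sample values were left unused. ChIP was tested against input on the counts with edgeR 4.0.16 (R 4.3.3, quasi-likelihood, TMM, Benjamini-Hochberg over 26354 promoters, threshold 0.05). The test was also run on simulated counts with a fixed dispersion, no difference between experiments and changes only at better covered promoters. That run does not bear on calls from few ChIP reads. The experiment number pairs ChIP with its input, as the sample titles and the study's methods state. Over all promoters the ChIP and input differences between experiments had a correlation of 0.093, and the fit with this block was an alternative. DESeq2 1.42.0, other scalings, filters and pseudocounts and fits without a library were also run. Positions and base composition came from GENCODE M21 (88 of 88 symbols matched), and promoter letters from RefSeq GRCm38.p6. Pairs were compared by two-sided Fisher's exact tests. Intervals are exact binomial. The members, lists and tests were chosen with earlier results of these data known. Named in the text are members called above, the 5 highest and 5 lowest, those without a ChIP read, paired promoters, the cyclins, main kinases, inhibitors, E2F, licensing and polymerase genes, Actb, Magea2 and called genes of the outside lists. Other names, and neighbouring genes, were chosen after their values were seen.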

Additional observations from a re-analysis of the deposited data

How the results depend on the processing

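The count of members above input (3) was 3 with library totals, RLE factors, the replicate block or without mitochondrial rows, and 0 with DESeq2, which left 79 of the 88 adjusted p-values undefined (3 above and 19 below at an unadjusted p under 0.05). The count below (25) was 16 with the replicate block, 0 with DESeq2 and 14 of 54 where both inputs held 20 or more reads. Without 1 library at a time, a choice made after seeing the data in which the lone library of an arm is assumed to vary like the other arm, the counts ranged from 0 to 5 above and from 4 to 21 below. Library totals gave 32 below and shifted the fold change of the median promoter by -0.14 (log2), with 43.1% of all calls above input in place of 52.2%. The block changed no other call of members than the 9 below.

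The median log2 ratio (-1.01) was -0.0089 with 5 reads added (all other promoters 0.34), -1.22 with 0.5 reads (others -0.44), -0.83 where both inputs held 20 or more reads, -0.74 for windows that overlap no other and -0.67 with the GC trend removed, and ranged from -1.06 to -0.80 without 1 experiment. The median percentile (29.4) was 30.5, 35.96 and 38.0 in the last 3 settings, 34.0 for summed reads, 32.5 among protein-coding genes and 30.3 to 31.7 without 1 experiment. The share in the top quartile (7.95%) was 3.70% with that input filter, 0% for the top decile and 4.55% to 7.95% without 1 experiment. The ratio of Cdkn2a to Cdkn2b was 0 to 1.83 without 1 experiment, Cdc25c to Cdc25a was 0.692 without v102, Ccna1 to Ccna2 was 0 to 0.684 and Ccnb3 to Ccnb2 was 1.29 to 3.98. Log2 fold changes near 0 changed sign for Cdkn1c (-0.0177 with the block), Ccnb2 (-0.00624 with the block, -0.0196 with DESeq2) and Cdc23 (0.0105 with DESeq2). The cause was not tested. Without a whole experiment 1 library an arm is left, so the edgeR test has no residual degrees of freedom and gave no value.

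Few reads and 2 libraries an arm limit the calls: promoters above input had 28 to 44 ChIP reads, and those below had 0 to 5.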
